A study of Mus musculus with 20 samples.

Results

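Eps8l1, Grasp, Kmo, Gatm and Eif3j1 are 5 of the 31053 mouse genes counted by single-cell RNA-sequencing (scRNA-seq) in spleens and lymph nodes of mice that carried Eµ-PRMT5, Eµ-TCL1 or both transgenes. They were selected on their expression in B cells of these same libraries, with T cells and myeloid cells as contrast, under the working description of B-cell genes linked to PRMT5. Their levels by genotype, tissue and cell type are therefore given as a description without a test. The 20 libraries came from 13 mice labelled as strain C57BL/6N, with spleens of 4 Eµ-TCL1, 5 Eµ-PRMT5 and 4 Eµ-PRMT5/TCL1 (double transgenic) mice and lymph nodes of 3 Eµ-TCL1 and 4 double transgenic mice, and 7 of the mice gave both tissues. The nodes were sub-mandibular. Human PRMT5 or human TCL1, the product of a T-cell leukemia oncogene, was driven in these models by an immunoglobulin VH promoter and the IgH Eµ enhancer, which are active in B cells, and the double transgenic mice came from a cross of both models, for which the study's methods name C57BL/6J as the background of the Eµ-TCL1 parents. Every library carried at least 1 transgene, and the labels gave no age. The study took these tissues when mice reached its early removal criteria. It reports the longest median survival for Eµ-PRMT5 and the shortest for double transgenic mice. Age may thus have differed between the genotypes, and this was not tested. The mouse of Eµ-PRMT5 spleen 3 is listed in the study's methods among the transgenic founders. Double transgenic spleen 1 and node 2 came from 1 mouse labelled M0955-RT, a suffix that was not interpreted here. This mouse gave 4795 of the 8883 spleen and 2726 of the 5086 node B cells of its genotype, so it weighs most in pooled values. The replicates of a group were different mice, so that errors are the spread between mice. By Xist and Y-linked transcripts, 1 of the 4 Eµ-TCL1 mice, 4 of the 5 Eµ-PRMT5 mice and 3 of the 4 double transgenic mice that gave spleens were female, so sex differed between the genotypes.

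PRMT5 is an arginine methyltransferase that modifies histones and splicing proteins, and TCL1 co-activates the kinase AKT. B cells of Eµ-TCL1 mice accumulate as a clonal Cd5+ leukemia that resembles chronic lymphocytic leukemia. The 5 genes belong to no common pathway: Eps8l1 and Grasp encode adaptor proteins of the cell cortex, Kmo and Gatm encode metabolic enzymes of tryptophan and arginine use, and Eif3j1 encodes a subunit of a translation initiation factor.

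Each library held between 9348094 and 72440894 unique molecular identifiers (UMIs, 1 per captured transcript), all barcodes included. After cell calling and doublet removal 84231 cells remained, of which 30890 were B cells (at least 3 UMIs of Cd79a and Cd79b, 0 of Cd3d, Cd3e and Cd3g, under 20 of Jchain), 30451 were T cells and 5463 were myeloid cells. All 7 B-cell markers were present in the B cells of the library that stood farthest apart, Eµ-PRMT5 spleen 4, but their summed level was 1040.05 CPM, the usual scale on which the UMIs of a gene are divided by all UMIs of the same cells, against 4005 to 6914 CPM in the other 19 libraries. In that library 73.9% of B cells were cycling, and values with and without it are given where it moved a result. The T-cell receptor constant genes Trac, Trbc1 and Trbc2 stayed between 1.50 and 11.9 CPM in B cells of all 20 libraries, against 249 to 1504 CPM in T cells. The full list of T-cell markers adds the Cd3 genes, Cd2, Lck and Thy1. It summed to between 162 and 889 CPM in B cells, against 2898 to 6536 CPM in T cells. The gates required 0 Cd3 UMIs in B cells and at least 2 in T cells, so the Cd3 part of this contrast was fixed in advance. Myeloid markers summed to between 275 and 3579 CPM in B cells, with the highest sum in Eµ-PRMT5/TCL1 lymph node 3. Pairs of libraries shared 0 to 68 cell barcodes, at most 1.31% of the smaller library. The transgenes are human sequences and were not among the mouse genes counted, so their expression was not checked here.

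Sequence before the RefSeq starts of the 4 genes whose spleen B-cell levels separated Eµ-PRMT5 from Eµ-TCL1 mice is shown first, since it is where these members could share regulatory motifs. Motifs were searched in the 250 bases before each start in RefSeq on GRCm38.p6, at chr7:4460447-4460696 and chr7:4464485-4464734 for 2 of the 3 starts of Eps8l1, chr15:101223957-101224206 for Grasp, chr1:175631943-175632192 for Kmo and chr2:122028330-122028579 for Eif3j1. GENCODE, which gives the gene spans below, places starts farther upstream, so that these stretches hold between 19 (Grasp) and 197 (Kmo) untranslated bases of the annotated genes, and those of Kmo and of the downstream Eps8l1 start lie within the gene. The bases outside untranslated regions are printed, 5′ to 3′ on the plus strand, with GC boxes (GGGCGG or its reverse complement, the motif of Sp1-type factors) in capitals. They are chr7:4460447-4460673 for the upstream start of Eps8l1, chr15:101223957-101224187 for Grasp, chr1:175631943-175631995 for Kmo and chr2:122028330-122028545 for Eif3j1.
Eps8l1, upstream start: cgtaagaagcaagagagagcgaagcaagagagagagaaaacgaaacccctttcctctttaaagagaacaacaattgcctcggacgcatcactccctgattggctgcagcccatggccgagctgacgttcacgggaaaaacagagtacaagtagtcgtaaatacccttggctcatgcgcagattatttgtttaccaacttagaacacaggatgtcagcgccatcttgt
Grasp: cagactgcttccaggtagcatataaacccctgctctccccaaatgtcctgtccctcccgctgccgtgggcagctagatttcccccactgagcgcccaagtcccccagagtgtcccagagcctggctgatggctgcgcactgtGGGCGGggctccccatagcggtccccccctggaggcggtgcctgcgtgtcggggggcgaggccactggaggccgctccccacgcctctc
Kmo: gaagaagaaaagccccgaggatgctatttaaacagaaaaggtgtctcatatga
Eif3j1: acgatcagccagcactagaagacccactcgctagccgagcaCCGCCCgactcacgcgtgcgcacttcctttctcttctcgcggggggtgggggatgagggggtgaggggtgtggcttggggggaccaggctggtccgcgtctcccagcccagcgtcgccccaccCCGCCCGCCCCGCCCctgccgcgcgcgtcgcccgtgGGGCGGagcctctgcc
In the full 250 bases Eif3j1 held 5 GC boxes, all in the printed part, Grasp held 1, also printed, each of the 2 Eps8l1 starts held 1 outside the printed bases, and Kmo held 0. Of 32851 mouse promoters of the same length, 32.7% held at least 1 GC box on either strand. Neither the E-box CACGTG, bound by Myc, nor the Ets-type motif CCGGAAG was present in any of these stretches, and 6.02% and 6.91% of all promoters held these motifs. The 250-base stretches held between 5 (Kmo) and 26 (Eif3j1) CpG pairs, against a median of 6 over all promoters. No motif of the 3 searched was common to all 4 genes.

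Eps8l1 encodes a member of the Eps8 family of adaptors, which link growth factor receptors to Rac and actin. Its gene spans chr7:4460674-4480487 on the plus strand of GRCm38. In B cells of the 5 Eµ-PRMT5 spleens Eps8l1 stood at 6.45, 6.41, 4.16, 0.425 and 4.45 CPM in replicates 1 to 5. In the 4 Eµ-TCL1 spleens it stood at 0, 0, 0.0869 and 0 CPM, where 3 UMIs would have given 0.423, 0.0897, 0.261 and 0.143 CPM. In the 4 double transgenic spleens it was at 6.06, 3.01, 4.44 and 8.13 CPM. A single UMI was therefore counted in 9538 B cells and 73027301 UMIs of Eµ-TCL1 spleens, whereas every spleen with the PRMT5 transgene lay above that level. Pooled over libraries, the level was 243-fold higher in Eµ-PRMT5 (117 UMIs, 95% exact interval 42.7 to 9667) and 442-fold higher in double transgenic spleens (79.0 to 17521) than in Eµ-TCL1 spleens, where the intervals cover counting error only. Without Eµ-PRMT5 spleen 4 the first ratio was 385 (111 UMIs, 67.6 to 15322). All of these ratios rest on the 1 UMI of Eµ-TCL1 spleen 3, in a gene selected on this contrast. 

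Lymph nodes had the same order of genotypes, but their levels were also used in the selection and all 7 came from mice that gave spleens. Eps8l1 was at 12.3, 6.33, 6.28 and 10.0 CPM in B cells of the 4 Eµ-PRMT5/TCL1 nodes. In the 3 Eµ-TCL1 nodes it was at 4.10, 0.107 and 0.121 CPM, so that node 1 stood apart and the groups did not overlap. Of 10892 genes 1.96% had every double transgenic node above every Eµ-TCL1 node. By group means, double transgenic mice stood highest, with 8.74 ± 2.95 CPM (SD, n = 4) in nodes and 5.41 ± 2.20 (n = 4) in spleens. They were followed by Eµ-PRMT5 spleens with 4.38 ± 2.45 (n = 5), the nodes of Eµ-TCL1 mice with 1.44 ± 2.30 (n = 3) and their spleens with 0.0217 ± 0.0434 (n = 4). Neighbours in this order overlapped, except the last pair, whose ranges of 0.107 to 4.10 and 0 to 0.0869 CPM did not, where 3.6% of 11908 genes had every Eµ-TCL1 node above every Eµ-TCL1 spleen. Nodes 2 and 3 rest on 1 and 2 UMIs there. Without Eµ-PRMT5 spleen 4 the Eµ-PRMT5 mean was 5.37 ± 1.23 CPM (n = 4).

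**Figure D1:**
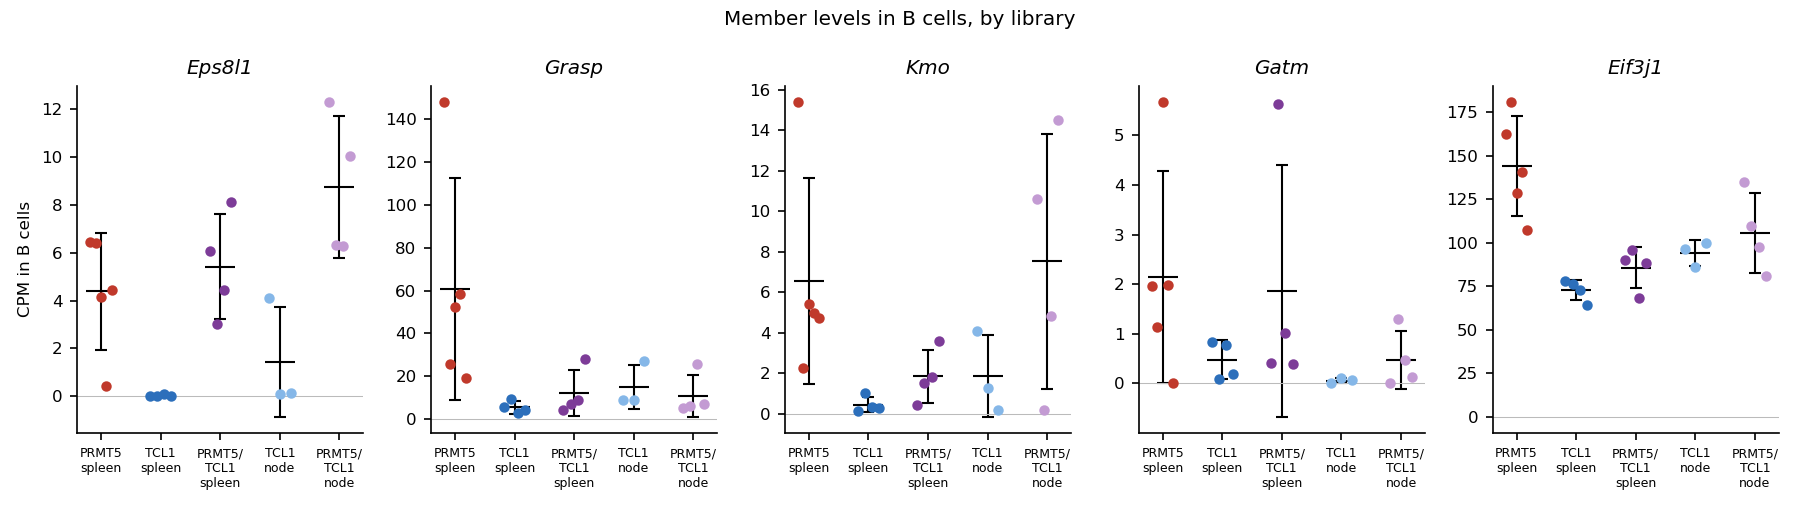
Level of each gene in B cells of each library, in CPM on a linear axis of its own for each gene, with 1 point per library and the mean and SD of each group in black. Eps8l1 lay at or near 0 in all 4 Eµ-TCL1 spleens and between 6.28 and 12.3 CPM in the 4 Eµ-PRMT5/TCL1 lymph nodes, whereas Gatm stayed at or below 5.68 CPM in all groups.

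The share of B cells with an Eps8l1 UMI followed the CPM. In spleens it averaged 2.94% ± 1.74 for Eµ-PRMT5, 0.0204% ± 0.0408 for Eµ-TCL1 and 4.14% ± 0.851 for double transgenic mice. In nodes it averaged 1.09% ± 1.72 for Eµ-TCL1 and 6.44% ± 5.17 for double transgenic mice. With every cell thinned to 1000 UMIs, the 3 spleen shares became 0.664% ± 0.418, 0% and 0.625% ± 0.552. Myeloid cells, taken as the comparison of low expression, held it in 2.03% ± 1.23, 1.81% ± 0.957 and 0.928% ± 0.783 of cells in the same spleens (0.106% ± 0.162, 0.255% ± 0.323 and 0.131% ± 0.157 after thinning). The median depth over the 13 spleens was 8805 UMIs a myeloid cell, against 7692 for B cells. The mean share in B cells was thus above that in myeloid cells in the spleens with the PRMT5 transgene, by less than the SD in Eµ-PRMT5 mice, and below it in Eµ-TCL1 spleens, where it is read as background.

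Eps8l1 was not restricted to B cells in these tissues. It was detected in T cells of all 20 libraries, at 2.99 to 22.6 CPM, and T cells held 57.6% of its UMIs in the 3 cell types, B cells 38.8% and myeloid cells 3.51%. Its level was higher in T cells than in B cells in 14 of 20 libraries. In the 4 Eµ-TCL1 spleens T cells held 3.26, 9.95, 9.19 and 6.49 CPM while B cells of the same libraries held 1 UMI in all. The B-cell level was 0% to 0.946% of the T-cell level in Eµ-TCL1 spleens and 14.2% to 110% in Eµ-PRMT5 spleens, with the lowest in spleen 4. In double transgenic mice it was 59.3% to 199% in the spleen and 101% to 240% in the node. In the Eµ-TCL1 nodes it was 60.2%, 0.761% and 3.47%, so node 1 lay within the range of the double transgenic spleens. The T-cell receptor genes in B cells stood at 0.172% to 2.01% of their T-cell level in all 20 libraries. The full T-cell marker list, summed, was less low in B cells, at 162 to 889 CPM against 2898 to 6536 CPM in T cells. The Cd3 genes of that list were set apart by the gates themselves. Between genotypes, also given as a description, the log2 fold change in T cells was 0.49 (SE 0.51, edgeR) for Eµ-PRMT5 and -0.36 (SE 0.54) for double transgenic against Eµ-TCL1 spleens. In these comparisons 0.0358% and 0% of the 11175 genes tested in T cells were called at an adjusted p under 0.05, and for the second 758 genes had an unadjusted p under 0.05 and DESeq2 called 2. The difference between the B-cell and T-cell changes was not tested.

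**Figure D2:**
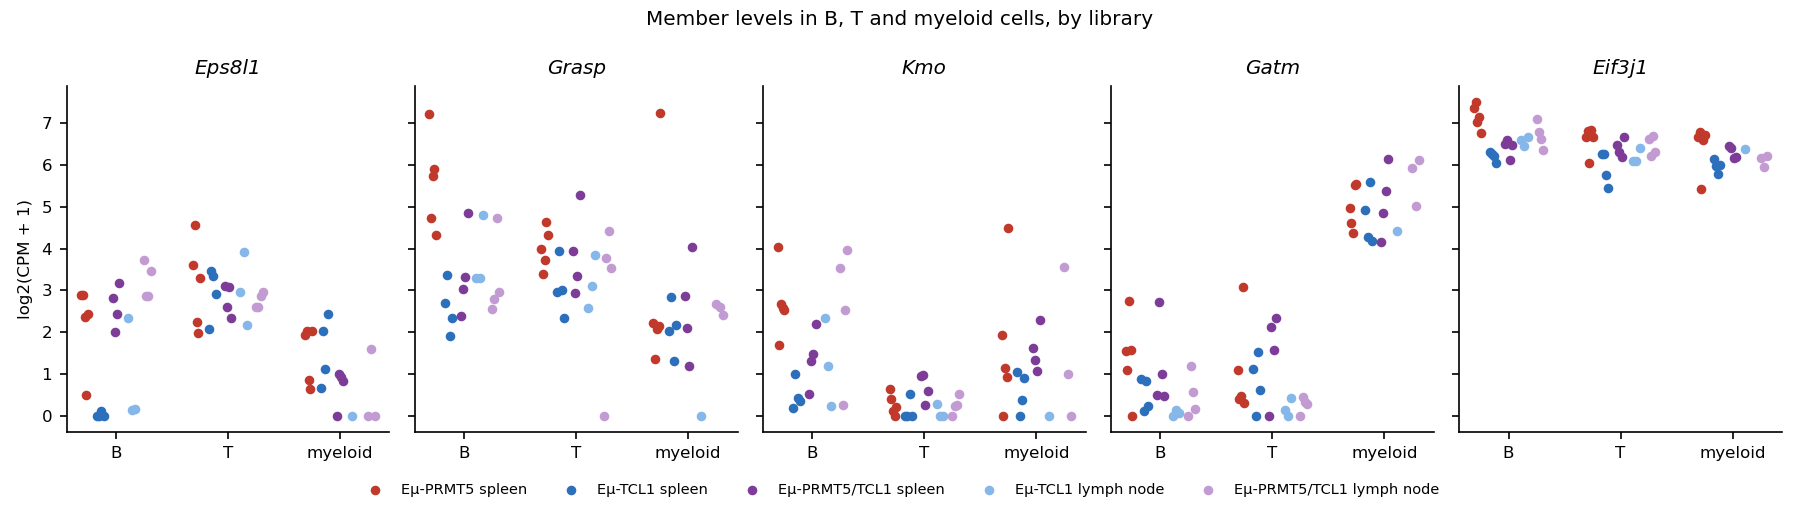
Level of each gene in B, T and myeloid cells, as log2(CPM + 1), with 1 point per library coloured by group and libraries under 20 cells of a type left out. Eps8l1 was present in T cells of every group, Kmo stayed at or below 0.963 CPM in T cells, and Gatm was higher in myeloid cells than in B cells in 17 of 17 libraries.

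B cells were split in each library by its most frequent immunoglobulin heavy-chain variable gene: those with at least 80% of their Ighv UMIs from that gene were called leading-clone cells, and those with at most 20% other B cells. That gene held 31.1% to 99.9% of the Ighv UMIs of a library and under 50% in 4 libraries (Eµ-PRMT5 spleens 1 to 3 and Eµ-TCL1 spleen 3), so these cells share a variable gene and were not shown to be 1 leukemic clone. In Eµ-TCL1 spleens 7715 leading-clone cells held 0 Eps8l1 UMIs, which allows up to 0.0511 CPM over the group, and 730 other B cells held 1. In Eµ-TCL1 lymph node 1, the node that stood apart, 110 leading-clone cells held 0 UMIs and 48 other B cells held 5 UMIs (22.5 CPM). Of the B cells in this split, those outside the leading clone held its Eps8l1. Eµ-PRMT5 spleen 3 had the same arrangement, with 0 UMIs in 320 leading-clone cells and 29 UMIs in 721 other B cells (6.46 CPM). 

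In the double transgenic mice the leading clone itself carried Eps8l1. Its 4502 cells in their spleens held 221 UMIs (6.30 CPM), and its 2375 cells in their nodes held 161 UMIs (10.0 CPM). The other B cells of these mice carried it as well, so it was not particular to the leading clone. They held 18 UMIs in 598 cells of the spleens (5.02 CPM) and 6 UMIs in 155 cells of the nodes (6.44 CPM). In Eµ-PRMT5 mice the leading clones differed: 314 cells of spleen 5 held 14 UMIs (5.04 CPM), while 771 cells of spleen 4 held 6 UMIs (0.435 CPM). Over the 7 mice with at least 30 cells of both kinds, Eps8l1 was lower in the leading clone in 5 of 7 mice, by 1.04 ± 1.98 (SD) on the log2(CPM + 1) scale, which did not pass an exact two-sided sign-flip permutation test (p = 0.281, with 0.0156 the smallest p that 7 mice allow). None of the other 4 members passed it either (p of 0.406 to 1). For Eps8l1, 1 of the 5 mice with a lower leading clone was that of Eµ-TCL1 spleen 3 (-0.18), where the sign rests on 1 UMI.

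**Figure D3:**
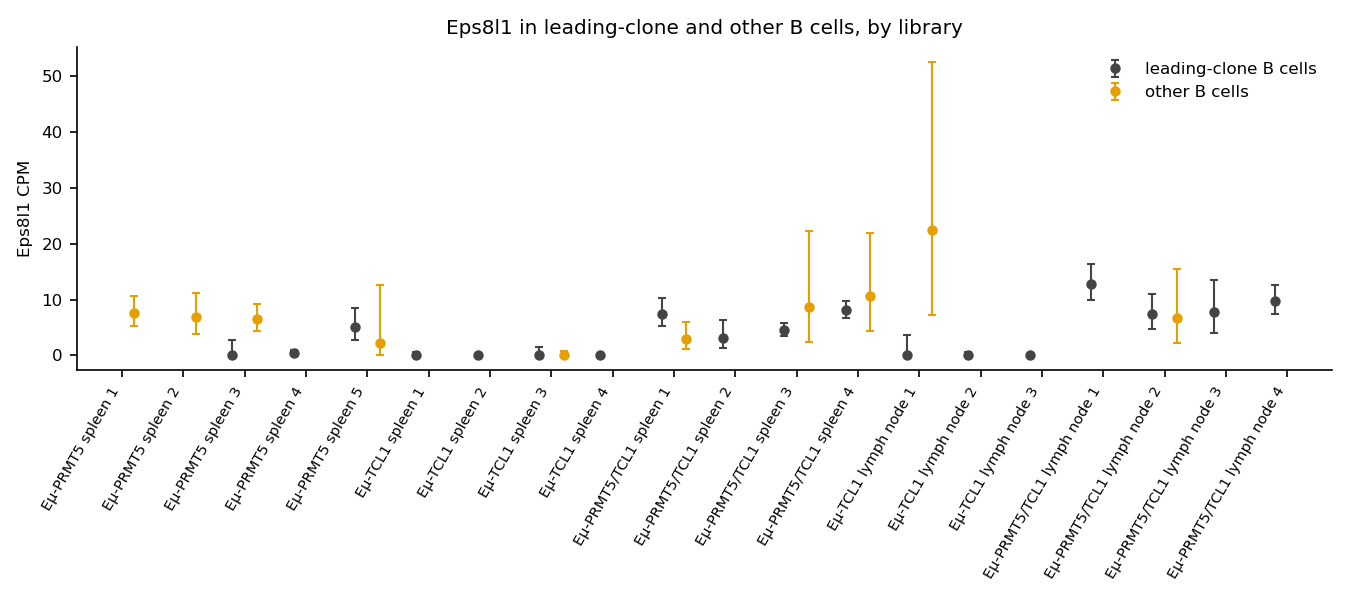
Eps8l1 level in CPM on a linear axis in leading-clone (grey) and other B cells (orange) of each library, with exact 95% Poisson intervals for counting error, where a kind of cell had at least 30 cells. Leading-clone cells lay at or near 0 in all 7 Eµ-TCL1 libraries and reached 12.8 CPM in the 8 Eµ-PRMT5/TCL1 libraries, and the highest value was in the other B cells of Eµ-TCL1 lymph node 1 (22.5 CPM from 5 UMIs).

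Grasp encodes tamalin, a scaffold that binds cytohesins and so connects membrane receptors to Arf GTPases. The gene spans chr15:101224188-101232756 on the plus strand. In B cells of Eµ-PRMT5 spleens it stood at 148, 25.6, 52.1, 58.3 and 18.99 CPM. In Eµ-TCL1 spleens it stood at 5.50, 9.36, 2.78 and 4.05 CPM. The lowest Eµ-PRMT5 spleen was above the highest Eµ-TCL1 spleen, as in 3.05% of 11541 genes, and spleen 1 stood far above the others. In spleens of double transgenic mice Grasp was at 4.22, 7.15, 9.01 and 28.0 CPM, so 3 of 4 lay within the Eµ-TCL1 range. The nodes did not separate by genotype, with 8.89, 8.91 and 26.9 CPM in Eµ-TCL1 and 4.92, 6.00, 25.6 and 6.82 CPM in Eµ-PRMT5/TCL1 mice. Eµ-PRMT5/TCL1 node 3, the highest of its group, was also the library with the highest sum of myeloid markers in B cells (3579 CPM, all 9 markers detected), and the part of that RNA in its Grasp level was not tested. In B cells without UMIs of Lyz2, Mpo, Elane, S100a8 and S100a9, a filter chosen after the data were seen, node 3 stood at 21.3 CPM. This filter left out 40 of its 362 B cells. It does not use the other myeloid markers of the sum. 

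By group means, Grasp was highest in Eµ-PRMT5 spleens (60.7 ± 51.8 CPM), then in nodes of Eµ-TCL1 mice (14.9 ± 10.4), spleens (12.1 ± 10.8) and nodes (10.8 ± 9.88) of double transgenic mice and spleens of Eµ-TCL1 mice (5.42 ± 2.85), and all neighbours overlapped. T cells held 29.3% of its UMIs, and B cells were above T cells in 10 of 20 libraries and below in 10. In T cells the log2 fold change was 0.98 (SE 0.47) for Eµ-PRMT5 and 0.83 (SE 0.49, and 0.20 without spleen 4) for double transgenic against Eµ-TCL1 spleens. Grasp was thus not confined to B cells. In myeloid cells it stood at 150 CPM in Eµ-PRMT5 spleen 5, from 37 cells, against 1.56 to 3.69 CPM in the other 4 Eµ-PRMT5 spleens. The myeloid fold change of 2.73 (SE 1.27) in that comparison fell to 0.26 without this library.

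Kmo encodes kynurenine 3-monooxygenase, which turns kynurenine made from tryptophan into 3-hydroxykynurenine. The gene spans chr1:175620381-175662116 on the plus strand. In B cells of Eµ-PRMT5 spleens it stood at 15.4, 2.26, 5.43, 4.96 and 4.75 CPM. In Eµ-TCL1 spleens it stood at 0.141, 1.02, 0.348 and 0.286 CPM. These ranges did not overlap, with Eµ-PRMT5 higher, as in 3.05% of 11541 genes, and Eµ-PRMT5 spleen 1 was the highest by far. The groups held 245 and 45 Kmo UMIs. In B cells without the 5 myeloid transcripts above, the gap was smaller. There Eµ-PRMT5 spleen 2 stood at 1.60 CPM from 4 UMIs and Eµ-TCL1 spleen 2 at 1.035 CPM. The Eµ-PRMT5/TCL1 spleens stood at 0.444, 1.50, 1.82 and 3.58 CPM, from within the Eµ-TCL1 range to within the Eµ-PRMT5 range. In nodes Kmo was at 4.10, 1.29 and 0.182 CPM in Eµ-TCL1 and at 10.6, 0.196, 4.83 and 14.5 CPM in Eµ-PRMT5/TCL1 mice. In each genotype 1 node was as low as an Eµ-TCL1 spleen, and the genotypes overlapped. The means were in the order of double transgenic nodes (7.53 ± 6.30 CPM), Eµ-PRMT5 spleens (6.56 ± 5.10), nodes of Eµ-TCL1 mice (1.86 ± 2.02), double transgenic spleens (1.84 ± 1.30) and spleens of Eµ-TCL1 mice (0.448 ± 0.389), with overlap between all neighbours.

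Kmo had the highest share of its UMIs in B cells among the 5 members, at 82.9%. T cells stayed at or below 0.963 CPM, and B cells were above T cells in 18 of 20 libraries and above myeloid cells in 10 of 17. Myeloid cells reached 21.4 CPM in Eµ-PRMT5 spleen 5 and lay between 0 and 2.84 CPM in the other 4 Eµ-PRMT5 spleens.

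Gatm encodes glycine amidinotransferase, the enzyme that starts creatine synthesis from arginine and glycine. The gene spans chr2:122594467-122611303 on the minus strand. Its B-cell level was 1.96, 1.13, 5.68, 1.98 and 0 CPM in Eµ-PRMT5 spleens, and 0.846, 0.0897, 0.782 and 0.191 CPM in Eµ-TCL1 spleens. In the double transgenic mice it was 0.412, 5.64, 1.01 and 0.384 CPM. These groups overlapped, and so did the nodes, with 0 to 0.107 CPM in Eµ-TCL1 and 0 to 1.31 CPM in Eµ-PRMT5/TCL1 mice. The means ran from 2.15 ± 2.13 CPM in Eµ-PRMT5 spleens through 1.86 ± 2.54 in spleens and 0.478 ± 0.588 in nodes of double transgenic mice to 0.477 ± 0.392 in spleens and 0.0560 ± 0.0538 in nodes of Eµ-TCL1 mice, with overlap between all neighbours.

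Gatm went against the description as a B-cell gene. Myeloid cells held 16.8 to 69.8 CPM in spleens and, over all libraries, 87.4% of its UMIs in the 3 cell types, and their level was above that of B cells in 17 of 17 libraries. Only 147 B cells held a Gatm UMI, and 59 of them (40.1%) also held UMIs of Lyz2, Mpo, Elane, S100a8 or S100a9, against 7.20% of the other 30743 B cells, genes chosen after the data were seen. Mpo, the neutrophil myeloperoxidase, was present in 19.7% of the Gatm-positive and 0.150% of the other B cells. Cells with Gatm had a median of 11351 UMIs, against 6132 in the others. All 15 UMIs of Eµ-PRMT5/TCL1 spleen 2 and all 15 of spleen 3 lay in cells with such myeloid UMIs. With these cells left out, the spleen mean was 1.95 ± 2.03 CPM for Eµ-PRMT5, 0.0228 ± 0.0457 for Eµ-TCL1 and 0.0983 ± 0.125 for double transgenic mice. The 5 Eµ-PRMT5 spleens then stood at 1.71, 1.20, 5.39, 1.46 and 0 CPM, and their mean was 1.09 ± 0.757 CPM (n = 4) without spleen 3. In myeloid cells the log2 fold changes were 0.11 (SE 0.36) and 0.25 (SE 0.37) for Eµ-PRMT5 and double transgenic against Eµ-TCL1 mice in edgeR, where 0% of 9277 genes were called (291 and 174 at an unadjusted p under 0.05, 1 and 0 called by DESeq2).

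Eif3j1 encodes the j subunit of eukaryotic initiation factor 3, which joins the small ribosomal subunit at the start of translation. The gene spans chr2:122028546-122056598 on the plus strand. It was the most abundant member in every group. Eµ-PRMT5 spleens held 163, 181, 129, 141 and 107 CPM in B cells. Eµ-TCL1 spleens held 77.9, 76.1, 73.0 and 64.5 CPM, and no library of these groups overlapped. Of 11541 genes 3.05% had every Eµ-PRMT5 spleen above every Eµ-TCL1 spleen. Eµ-PRMT5/TCL1 spleens held 90.0, 95.9, 68.5 and 88.4 CPM, of which 1 lay within the Eµ-TCL1 range. Nodes held 96.4, 86.0 and 100.1 CPM in Eµ-TCL1 and 135, 109, 97.6 and 80.8 CPM in Eµ-PRMT5/TCL1 mice, so the genotypes overlapped. The means were 144 ± 28.7 CPM in Eµ-PRMT5 spleens, 106 ± 22.8 in double transgenic nodes, 94.2 ± 7.27 in nodes of Eµ-TCL1 mice, 85.7 ± 11.9 in double transgenic spleens and 72.9 ± 5.91 in spleens of Eµ-TCL1 mice, and all neighbours in this order overlapped.

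Eif3j1 was expressed in all 3 cell types, at 42.5 to 114 CPM in T cells and 41.8 to 166 CPM in myeloid cells of all libraries, and B cells were above T cells in 16 of 20 libraries. In T cells its log2 fold change was 0.68 (SE 0.22) for Eµ-PRMT5 and 0.33 (SE 0.23) for double transgenic against Eµ-TCL1 spleens. In myeloid cells the changes were 0.50 (SE 0.24) and 0.24 (SE 0.25), so that all 4 were positive. A copy of the gene, Eif3j2, shares 36.2% of the 98-base windows of its transcript and 0% of those in the last 500 bases, where 3′ tags are read. Eif3j2 itself was counted at 0 to 1.70 CPM in B cells. Spg11 overlaps Eif3j1 on the opposite strand, and Gm47314, annotated as a miRNA gene, overlaps it on the same strand.

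Across the genotypes in spleen B cells, 4 of the 5 members (Eps8l1, Grasp, Kmo and Eif3j1) had every Eµ-PRMT5 library above every Eµ-TCL1 library. Such separation was seen in 3.05% of the 11541 genes fitted, but the members were selected on this contrast. In edgeR the log2 fold changes were 7.32 (SE 0.98) for Eps8l1, 3.41 (SE 0.67) for Grasp, 3.68 (SE 0.74) for Kmo, 2.20 (SE 1.11) for Gatm and 0.91 (SE 0.19) for Eif3j1. The value for Eps8l1 depends on the prior count, since the Eµ-TCL1 spleens were at or near 0. Each SE was derived from the F statistic of the fit and is not a separate estimate of error. The fit called 3 genes (0.026%) at an adjusted p under 0.05, with 1973 at an unadjusted p under 0.05 and 679 called by DESeq2, but edgeR called 318 without Eµ-PRMT5 spleen 4, 69 without spleen 5 and 1 with sex as a covariate. With that covariate the change of Gatm was 0.37 (SE 1.28), while those of the other 4 members were 7.58 for Eps8l1, 3.56 for Grasp, 4.22 for Kmo and 0.73 for Eif3j1.

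For double transgenic against Eµ-TCL1 spleens only Eps8l1 separated without overlap, where 2.07% of genes did. The log2 fold changes were 7.68 (SE 0.99) for Eps8l1, 0.96 (SE 0.64) for Grasp, 1.76 (SE 0.72) for Kmo, 1.81 (SE 1.17) for Gatm and 0.14 (SE 0.20) for Eif3j1. The fit called 1 gene (0.00866%), and 0 genes when any 1 of these 8 libraries was left out or with sex as a covariate, with 360 at an unadjusted p under 0.05 in the latter. That gene was Eps8l1, and since it was selected on these values its call is no test. With sex as a covariate the changes were 7.91 for Eps8l1, 0.22 for Gatm and -0.029 for Eif3j1. Without the covariate, that of Gatm fell to 0.34 without spleen 2 and that of Grasp to 0.32 without spleen 4 of the double transgenic mice. Against Eµ-PRMT5 spleens no member of the Eµ-PRMT5/TCL1 spleens was higher without overlap (background 1.42%). Eif3j1 was lower without overlap, at 68.5 to 95.9 against 107 to 181 CPM, where 0.407% of genes were, but it was selected on these libraries. There edgeR called 0 genes, with 1009 at an unadjusted p under 0.05 and 112 called by DESeq2, and the changes were -2.45 (SE 0.64) for Grasp, -1.93 (SE 0.68) for Kmo, -0.78 (SE 0.19) for Eif3j1, -0.39 (SE 1.05) for Gatm and 0.36 (SE 0.61) for Eps8l1. These 3 comparisons share their libraries, so their values are not independent. The double transgenic mice were thus near Eµ-PRMT5 mice for Eps8l1. Their means for Grasp, Kmo and Eif3j1 (12.1, 1.84 and 85.7 CPM) lay between the single transgenic groups. They were nearer Eµ-TCL1 (5.42, 0.448 and 72.9 CPM) than Eµ-PRMT5 spleens (60.7, 6.56 and 144 CPM). For these genes the working description as linked to PRMT5 thus held less, by means, in double transgenic than in Eµ-PRMT5 spleens. Gatm, at 1.86 CPM, also lay between, and its groups overlapped.

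The nodes were among the libraries on which the genes were selected, so their genotype contrast is a description. Only Eps8l1 had all Eµ-PRMT5/TCL1 nodes above all Eµ-TCL1 nodes, against 1.96% of 10892 genes, and no member lay below without overlap, where 4.32% of genes did. The log2 fold changes were 3.87 (SE 1.13) for Eps8l1, 2.65 (SE 1.36) for Kmo, 0.23 (SE 0.19) for Eif3j1 and -0.52 (SE 0.70) for Grasp, and Gatm was too low to be fitted. No gene was called in edgeR (0%), with 735 genes at an unadjusted p under 0.05 and 63 called by DESeq2. Without Eµ-TCL1 node 1, whose Eps8l1 lay outside its leading clone, 11 genes were called and the Eps8l1 change was 6.08 (SE 0.61). The change of Grasp turned to 0.37 without Eµ-TCL1 node 3.

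Spleen and node of the same mouse were then compared, also as a description, since the B-cell levels of both tissues were used in the selection. Eps8l1 was higher in B cells of the node in 7 of 7 mice, with a log2 fold change of 1.19 (SE 0.51, edgeR with mouse as a block). In 2 of the 3 Eµ-TCL1 mice this difference rested on 1 and 2 UMIs. Kmo was higher in 5 of 7 mice (1.32, SE 0.55) and Eif3j1 in 6 of 7 (0.36, SE 0.13). Grasp was higher in 4 of 7 (0.48, SE 0.49) and Gatm lower in 5 of 7 mice (-1.27, SE 0.92). Gatm rested on 0, 1 and 1 UMIs in Eµ-TCL1 nodes and on 0, 20, 1 and 1 in double transgenic nodes. All its UMIs in Eµ-TCL1 spleens 1 and 4 and double transgenic spleens 2 and 3 lay in cells with myeloid UMIs. In Eµ-TCL1 spleen 2 it was 0 of 3, and in double transgenic spleens 1 and 4 it was 5 of 13 and 4 of 6. The part of such cells in the Gatm difference was not tested. How many of all genes rose or fell in as many mice was not counted, so these directions cannot be read as particular to the members. Of 11908 genes 4 (0.0336%) were called in edgeR, with no member among them, and the median change over all genes was 0.01. In this comparison 1328 genes had an unadjusted p under 0.05 and DESeq2 called 289. An interaction of tissue and genotype called no gene (0%; 238 at an unadjusted p under 0.05, 1 called by DESeq2). For Eps8l1 it was -4.89 (SE 1.15), a value that depends on the prior count because Eps8l1 was at 0 in the spleens of all 3 Eµ-TCL1 mice.

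**Figure D4:**
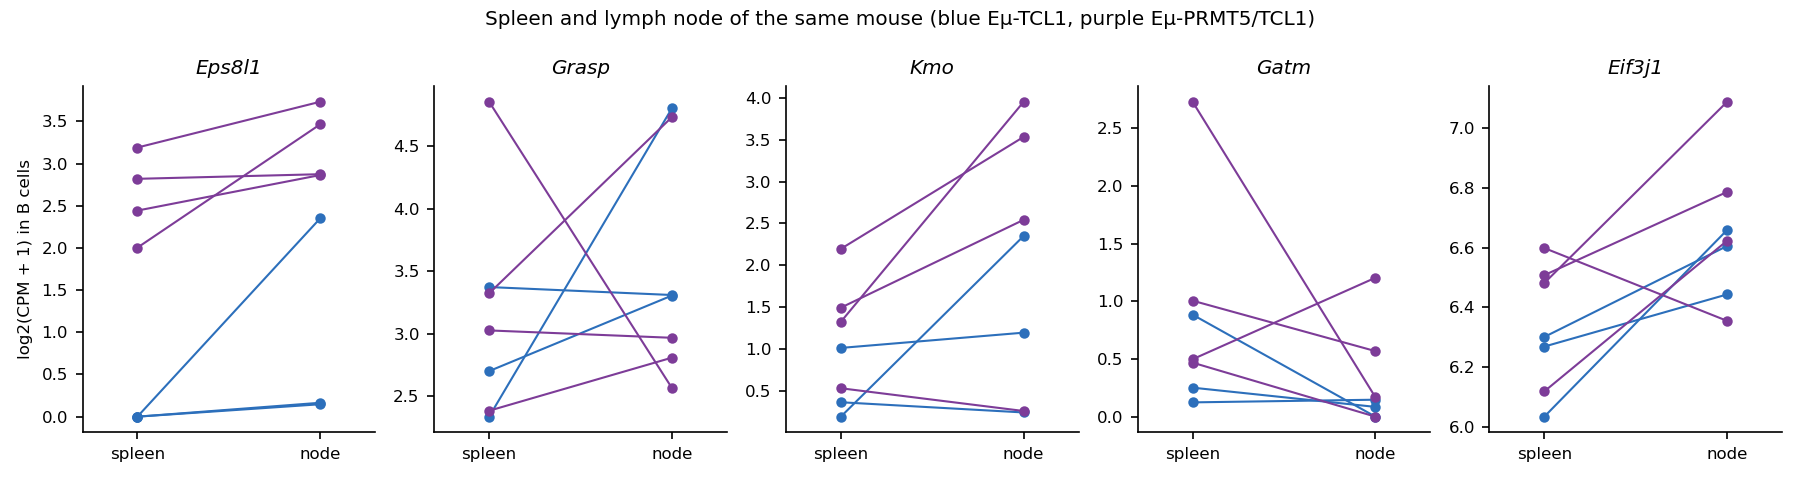
Level of each gene in B cells of the spleen and the lymph node of the same mouse, as log2(CPM + 1) on an axis of its own for each gene, with 1 line for each of 3 Eµ-TCL1 (blue) and 4 Eµ-PRMT5/TCL1 mice (purple). Eps8l1 was higher in the node in 7 of 7 mice and Eif3j1 in 6 of 7, directions that were not counted over all genes.

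Cycling B cells (at least 3 UMIs of 8 mitotic genes) were compared with B cells without such UMIs in the same library, in 9 mice and 13 libraries. Of the Eµ-PRMT5 mice only that of spleen 4 entered. Spleens 1, 2, 3 and 5 held 8, 3, 4 and 6 cycling cells, under the limit of 30. All other mice in this comparison carried the TCL1 transgene. Gatm was higher in cycling cells in 8 of 9 mice, by 1.40 ± 1.21 (SD) on the log2(CPM + 1) scale (exact two-sided sign-flip permutation test, p = 0.00781, with 0.00391 the smallest p that 9 mice allow). In B cells without the 5 myeloid transcripts listed above, the difference was 0.26 ± 0.66, higher in 3 and lower in 2 mice (exact permutation p = 0.438), so the call did not hold there. Kmo was higher in 8 of 9 mice, by 0.51 ± 0.51 (exact permutation p = 0.0195). Eif3j1 was higher in 8 of 9 mice by 0.26 ± 0.34 (exact permutation p = 0.043), a call that was lost in 7 of the 9 fits that left out 1 mouse. Eps8l1 was lower in 6 of 9 mice, by 0.31 ± 0.42 (exact permutation p = 0.0703, and 0.0312 without the mouse of Eµ-TCL1 spleen 4 and node 3), and Grasp in 6 of 9, by 0.31 ± 0.77 (exact permutation p = 0.254). For Eps8l1 the Eµ-TCL1 mice differed by -0.15 to 0.22. These values rest on at most 1 UMI in spleen 3, 1 in node 2 and 2 in node 3, so their signs and the p of 0.0312 in the exact permutation test hang on single UMIs. These p-values are not adjusted, and 10 tests of this kind were run over both splits of the B cells. Other genes were not put through this test, so the share of all genes that pass it is not known. The calls can therefore not be read as particular to the members. B cells of Eµ-PRMT5 spleen 4 were 73.9% cycling against at most 1.38% in the other 4 Eµ-PRMT5 spleens, and that library was not the highest of its group for any member in B cells.

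**Figure D5:**
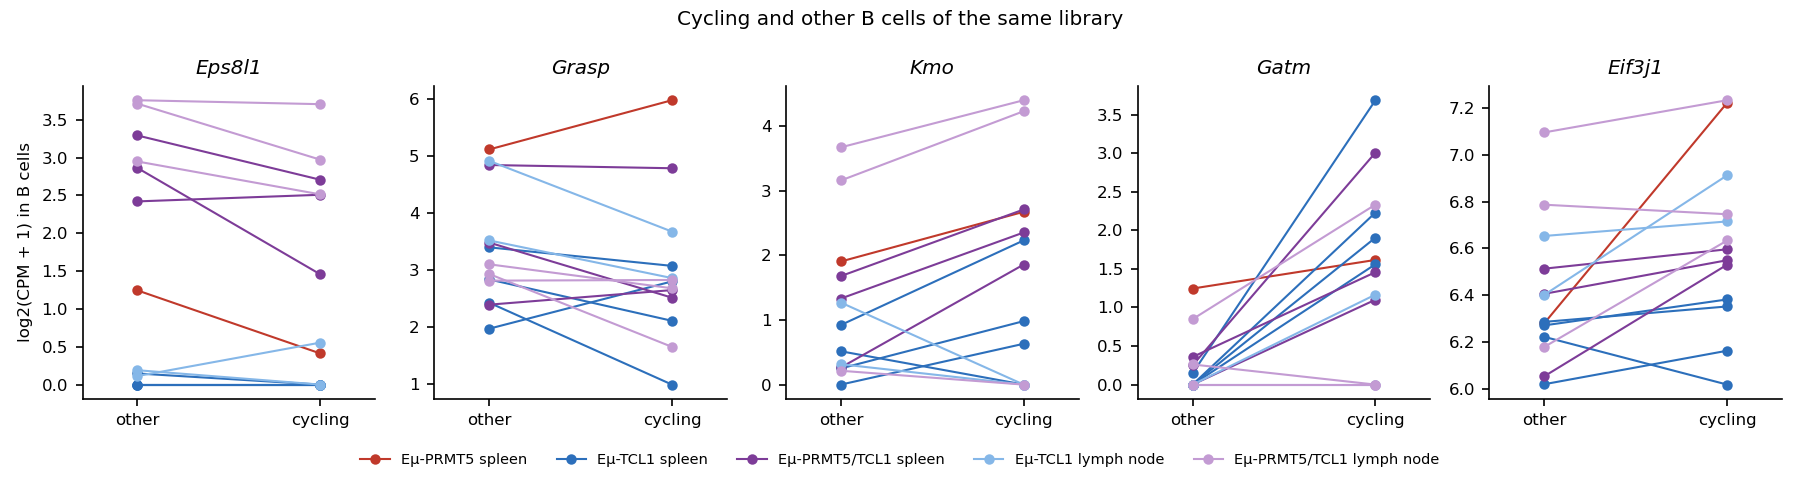
Level of each gene in cycling and other B cells of the same library, as log2(CPM + 1) on an axis of its own for each gene, with 1 line per library with at least 30 cells of both kinds, coloured by group. Kmo, Gatm and Eif3j1 were higher in the cycling cells of 8 of 9 mice, and Eps8l1 was lower in 6 of 9.

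Among themselves the members did not vary as a single unit. Across the 20 libraries Pearson's r of their log2 B-cell levels ran from 0.068 (Kmo with Gatm) to 0.672 (Grasp with Eif3j1), and was 0.632 for Eps8l1 with Kmo. The libraries include 2 tissues of the same mouse 7 times and differ in depth, so r is a description. Among 11711 genes the B-cell pattern most like that of Eps8l1 was found for Lta (r = 0.827), Tsr1 (0.826) and Carmil1 (0.813), over the 20 libraries. For Grasp these genes were Ifrd1 (0.898), Eif4a1 (0.865) and Srsf2 (0.858), and for Kmo they were Trmt10a (0.843), Pcgf5 (0.802) and Mfsd2a (0.770). For Gatm they were Anxa3 (0.846), Selenom (0.841) and Hoxa7 (0.827), and for Eif3j1 Smarca5 (0.873), Ddx18 (0.866) and Mphosph10 (0.848).

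The other genes of the 5 pathways were then described. Lists of 13 eIF3 genes, 12 genes of the Eps8 family and its Abi1-Sos1-Rac partners, 8 cytohesin and Grasp-related genes, 12 genes of the kynurenine pathway and 13 genes of arginine and creatine use held 58 genes, of which 44 were fitted in spleen B cells. For Eµ-PRMT5 against Eµ-TCL1 spleens edgeR called 0 of 44 in either direction, 22 changes were positive and 22 negative, 7 had an unadjusted p under 0.05 (15.9%, against 17.1% of all genes fitted), and DESeq2 called 1 gene higher and 1 lower (4.55%, against 5.88% of all genes). For double transgenic against Eµ-TCL1 spleens 0 of 44 were called and 32 changes were positive (72.7%, against 50.4% of all genes), with 1 at an unadjusted p under 0.05 (2.27%, against 4.51% of all genes) and 0 called by DESeq2. Kyat3, a kynurenine aminotransferase that competes with Kmo for kynurenine, had the largest change of its list, 3.18 (SE 0.88, adjusted p = 0.126) in Eµ-PRMT5 and 3.16 (SE 0.89, adjusted p = 1) in double transgenic mice, both against Eµ-TCL1 spleens. Its level was near 0 in Eµ-TCL1 spleens (0.0299 to 0.423 CPM), which overlapped the Eµ-PRMT5 spleens (0.377 to 4.67 CPM). Double transgenic spleens held 1.48 to 3.65 CPM, above all Eµ-TCL1 spleens, as 2.07% of genes were. None of the list genes named here passed the threshold in edgeR. For Ckb, the brain-type creatine kinase, the value was -2.52 (SE 0.87, adjusted p = 0.177) in Eµ-PRMT5 against Eµ-TCL1 spleens. Its level was 1.89 to 4.15 CPM (median 2.52) in Eµ-PRMT5, 1.39 to 49.2 CPM (median 6.72) in Eµ-TCL1 and 8.87 to 63.6 CPM (median 18.6) in double transgenic spleens, so the groups of that comparison overlapped. For Eps8, the founding member of the Eps8 family, the value was -1.28 (SE 0.82, adjusted p = 0.45), with 1.39 to 22.6 CPM (median 2.37) in Eµ-PRMT5 and 5.04 to 31.3 CPM (median 17.8) in Eµ-TCL1 spleens, which also overlapped. Cyth2, a cytohesin, had 0.91 (SE 0.34, adjusted p = 0.206) in the same comparison. The largest change among the 13 eIF3 genes was that of Eif3j2, the copy of Eif3j1, at 0.90 (SE 0.54, adjusted p = 0.42). In the nodes 0 of 39 fitted list genes were called, with 3 at an unadjusted p under 0.05 (7.69%, against 6.75% of all genes) and 0 by DESeq2.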

How the data were processed

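Single cells of spleens and lymph nodes were profiled with 10x 3′ chemistry. The deposited files hold raw UMI counts per gene and barcode, which the authors made with Cell Ranger (version 2.0.1 in the submitters' processing notes, a later release in the matrix headers) on mouse GRCm38, and Seurat 2.2.1 is named there for later steps. No cell annotation was used here. Counts on the antisense genes Gm15494, A330009N23Rik, Fh1 and Spg11 overlap the members Eps8l1, Grasp, Kmo and Eif3j1, and Gm47314 overlaps Eif3j1 on its own strand.

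A barcode was called a cell when its UMIs, multiplied by 10, reached the 99th percentile of the 3000 largest barcodes. Cells under 200 genes or over 10% mitochondrial UMIs were dropped. Scrublet's automatic limit (scanpy 1.11.5) marked 0 to 298 cells per library with a median of 3, so the highest scores were removed instead at 0.8% per 1000 cells, a choice made after the files were seen. T cells had at least 2 Cd3 UMIs and under 3 Cd79 UMIs. Myeloid cells had at least 2 UMIs each of Lyz2 and Tyrobp, 0 of Cd3 and under 3 of Cd79. Because the gates use single transcripts, cells of other types can pass them.

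Counts were summed per library and cell type (at least 20 cells) and fitted with edgeR 4.0.16 (quasi-likelihood, TMM, filterByExpr, Benjamini-Hochberg over all genes; R 4.3.3, limma 3.58.1), with DESeq2 1.42.0 as an alternative. Group means are of CPM, ± SD. The SE beside an edgeR change is its absolute value divided by the square root of the F statistic. It restates F and is no separate estimate of error. Splits of B cells were tested over mice by exact two-sided sign-flip permutation (SciPy 1.17.1, Python 3.11.15), 10 tests in all. The planned adjustment of these p-values over the members was left out because the members were selected with results known. No p is given for members in comparisons of library levels, whose values the selection used. The p-values measure the spread between these mice. The scripts were tested on simulated data. The named genes are the 5 members, for each member the 3 genes with the highest Pearson r, and the gene of each pathway list with the largest change. The members and lists were chosen with earlier results of these data known. Libraries that share a replicate number deviated together with r of -0.06 to 0.18 (12 spleen pairs) and -0.12 to 0.19 (3 node pairs), so the number was not treated as a pairing, whereas spleen and node of 1 mouse were.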

Additional observations from a re-analysis of the deposited data

Results flagged for a closer look

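In 10 of 55 groups of 4 or 5 libraries tested, 1 library lay farther from the rest of its group than Dixon's criterion allows. Chance gives about 1 in 20 for independent, normally distributed values without ties. Many of these levels rest on few UMIs and the groups share libraries, so the count cannot show an excess over that rate. For 2 of the 10, Eps8l1 in B cells and Kmo in T cells of Eµ-TCL1 spleen 3, all other libraries were at 0, so the criterion was met by construction. In B cells these were Kmo in Eµ-PRMT5 spleen 1 (15.4 CPM, others 2.26 to 5.43), Eps8l1 in Eµ-TCL1 spleen 3 (0.0869 CPM from 1 UMI, others 0), Gatm in Eµ-PRMT5/TCL1 spleen 2 (5.64 CPM, others 0.384 to 1.01) and Grasp in Eµ-PRMT5/TCL1 lymph node 3 (25.6 CPM, others 4.92 to 6.82). In T cells they were Gatm in Eµ-PRMT5 spleen 4 (7.47 CPM from 57 cells, others 0.245 to 1.15), Eif3j1 in Eµ-PRMT5 spleen 3 (65.4 CPM, others 100.2 to 114) and Kmo in Eµ-TCL1 spleen 3 (0.448 CPM, others 0). In myeloid cells they were Grasp in Eµ-PRMT5 spleen 5 (150 CPM, others 1.56 to 3.69), Kmo in the same library (21.4 CPM from 37 cells, others 0 to 2.84) and Eif3j1 in Eµ-PRMT5 spleen 3 (41.8 CPM, others 95.9 to 109).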

How the results depend on the processing

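The number of genes called depended on the tool. DESeq2 called 63 genes between the nodes, 289 between node and spleen, 1 in the interaction, 679, 21 and 112 in B cells for Eµ-PRMT5 against Eµ-TCL1, Eµ-PRMT5/TCL1 against Eµ-TCL1 and Eµ-PRMT5/TCL1 against Eµ-PRMT5 spleens, 29 and 2 in T cells, and 1 in myeloid cells of Eµ-PRMT5 spleens. Between node and spleen, edgeR called 83 genes with no filter on low counts, 14 under the stricter cell class rule, 8 with cells called at 500 UMIs, 7 with doublets kept and 2 with no replicate block. The interaction had 4 calls with no filter. With the replicate number as a block, although it pairs no mice, 22, 0 and 1 genes were called in the 3 spleen B-cell comparisons, and with sex as a covariate 1 and 0 in the first pair of them. In T cells 1 gene was called with cells called at 500 UMIs and 0 with UMI totals without TMM. Leaving out 1 library or mouse gave 0 to 11 calls between nodes, 0 to 54 between node and spleen, 1 to 318, 0 to 0 and 0 to 3 in the spleen B-cell comparisons, and 0 to 9 in T cells. The highest counts came without Eµ-TCL1 node 1, without the mouse of Eµ-PRMT5/TCL1 spleen 4, without Eµ-PRMT5 spleen 4 and, in T cells, without Eµ-PRMT5 spleen 5.

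Of the alternative values for members' changes, given without a test, 574 stayed within 1 SE and 25 moved by more. In sign 8 turned: in B cells Grasp between nodes (0.37 without Eµ-TCL1 node 3, over a range of -1.34 to 0.37), Eif3j1 for Eµ-PRMT5/TCL1 against Eµ-TCL1 spleens (-0.029 with sex as a covariate) and Gatm for Eµ-PRMT5/TCL1 against Eµ-PRMT5 spleens (0.20, 0.025 and 0.013 without Eµ-PRMT5 spleen 3, Eµ-PRMT5/TCL1 spleen 1 and 4), and in myeloid cells Gatm (-0.12 and -0.10 without Eµ-PRMT5 or Eµ-TCL1 spleen 4) and Grasp (-0.023 without Eµ-PRMT5/TCL1 spleen 4). Between node and spleen Gatm was -0.077 under the stricter cell class rule. In the leading-clone split, where no member passed its test, 100 cells per class gave 0.33 for Grasp, 0.67 for Kmo and 0.32 for Gatm. Gatm was also positive with a pseudocount of 5 CPM (0.074), with doublets kept (0.074) and without myeloid UMIs (0.22), and leaving out a mouse gave -0.31 to 0.21 for Gatm (0.19 without Eµ-PRMT5/TCL1 spleen 4) and -0.38 to 0.080 for Grasp. In the cycling split, Gatm lost its call with 100 cells per class (0.86) and without myeloid UMIs (0.26), Eif3j1 with other class limits (0.23), and leaving out a mouse gave 0.17 to 0.31 for Eif3j1 (call lost at 0.17, 0.23, 0.25, 0.27 and 0.28) and -0.37 to -0.23 for Eps8l1 (p = 0.0312 in the exact permutation test, a call gained, at -0.37 without the mouse of Eµ-TCL1 spleen 4). The mean Gatm level in B cells of Eµ-TCL1 spleens was 0.0228 CPM without myeloid UMIs. The cause was not tested for any of these.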
